A study of Homo sapiens with 4 samples.

Results

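Adding etoposide to aclarubicin was examined by setting the array of MelJuSo cells given both drugs against the array of cells given aclarubicin alone. MelJuSo is a human skin melanoma cell line. Genes entered the comparison when a probe with 1 gene symbol had a detection p-value under 0.01 on at least 1 of the 2 arrays, which gave 6877 genes, against 10077 genes detected on at least 1 of the 4 arrays of the series. Of the 6877 genes, 6118 were detected on both arrays, 160 after the combination only and 599 after aclarubicin only. The 4 groups received etoposide with aclarubicin, each at 10 µM, aclarubicin alone at 10 µM, doxorubicin at 9 µM, or no drug. Each treated group was exposed for 2 h, washed free of drug and sampled 1 day after drug removal; the untreated cells have no stated time. Each group is 1 array of 1 cell line, and the labels do not say whether etoposide and aclarubicin were given together or one after the other. Etoposide without aclarubicin was not analysed here. With 1 array a side there is no replicate spread and no test, so every value below compares 2 arrays and not 2 conditions.

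Topoisomerase II passes one DNA duplex through a break it makes in another, and it stays joined to the broken ends while it does so. Etoposide, a podophyllotoxin derivative, and doxorubicin, an anthracycline, hold the enzyme on the broken DNA and so leave double-strand breaks. Aclarubicin, an anthracycline too, intercalates into DNA and keeps topoisomerase II from binding it, and it is known to oppose the breaks that etoposide makes. Anthracyclines can also evict histones from chromatin, which etoposide does not do. Double-strand breaks activate p53, which turns on genes of arrest, death and repair, and they hold cells back from mitosis.

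Fewer probes were detected on the 2 arrays than on the other two. Of 48803 probes, 9128 were detected after the combination and 9864 after aclarubicin, against 14773 after doxorubicin and 13521 in untreated cells. The lowest normalized signal of a detected probe was 94.9 after the combination, 79.6 after aclarubicin, 33.6 after doxorubicin and 39.1 in untreated cells. Signals below are linear values after background correction and quantile normalization, and differences are log2 differences, combination minus aclarubicin. The error available was technical, taken over 1270 genes read by at least 2 detected probes. The log2 differences of a gene's 2 brightest probes were subtracted, and the SD of the result was divided by the square root of 2. This per-probe error was 0.17, with 0.20 in the dimmest part and 0.14 in the brightest, and the gap between 2 probes is wider. At the edge of detection the 2 arrays were not level. The 126 genes whose best detection p-value was the largest that passed, 0.00922, had median signals of 98.2 after the combination and 73.5 after aclarubicin, a median difference of 0.47 (0.14 without scaling), and the 45 genes just outside, at 0.0105, had 92.4 after the combination and 69.9 after aclarubicin, a median difference of 0.41 (0.08 without scaling). Higher values of the dimmest genes are to be read beside this offset. Melanocyte markers were detected only in part. SOX10, TYRP1 and PMEL were detected on all 4 arrays, MITF on all except that of the combination, and PAX3, TYR, MLANA and S100B on none. Of 13 keratinocyte, fibroblast and leukocyte markers, KRT10, LUM and CD14 were detected after the combination and after aclarubicin.

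Most genes stood close to where aclarubicin alone had put them. The median of all genes was 0.0070 log2 and the SD across genes 0.43. Of the 6877 genes, 6172 were not shown to be past 1.5-fold. In that count a gene detected on only 1 array stands at its limit, so its difference may be larger. Of the 6118 genes detected on both arrays, 283 were at least 1.5-fold higher and 332 at least 1.5-fold lower. At least 2-fold higher after the combination were 32 genes (0.465% of the genes measured), and at least 2-fold lower were 63 genes (0.916%). Of these, 5 higher and 9 lower genes were detected on only 1 of the arrays, and their folds are lower limits set by the dimmest detected signal of the other array. At 1.5-fold the counts were 323 higher (4.7%) and 382 lower (5.55%). Counts of list members at 1.5-fold are to be read beside these shares. Where the first of 2 probes was at least 1.5-fold higher, the second had the same sign in 29 of 30 genes, and was itself past 1.5-fold in 20. Where the first was at least 1.5-fold lower, the second had the same sign in 45 of 47 genes, and was past 1.5-fold in 29. Quantile normalization sets the arrays to one distribution. Without scaling between arrays the median of all genes was -0.28, with 7 genes at least 2-fold higher and 332 lower, and with median scaling 9 were higher and 287 lower, so list medians are read against the unscaled median wherever unscaled values are given.

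**Figure D1:**
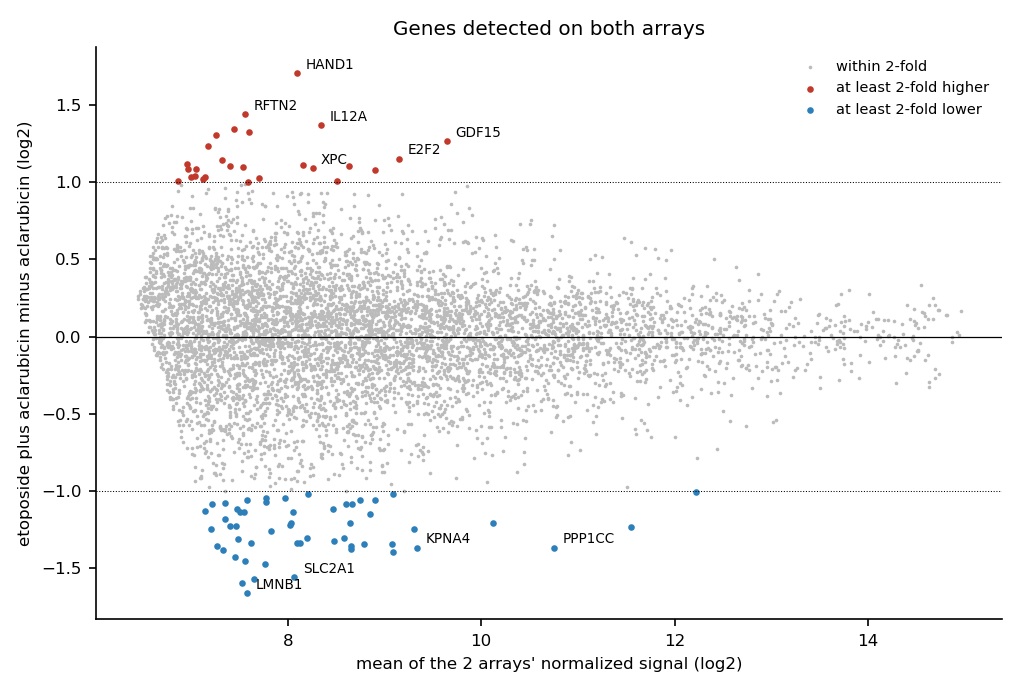
Log2 difference between etoposide plus aclarubicin and aclarubicin for each gene detected on both arrays, against the mean of the 2 normalized signals in log2; dotted lines mark 2-fold. The 27 genes at least 2-fold higher and the 54 at least 2-fold lower lie mostly at dim to middle signals, with PPP1CC among the brighter of the lower genes.

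Genes of mitosis stood lower after the combination than after aclarubicin alone, and no other of the 48 gene lists had so low a median. Of 53 measured genes of the G2/M and mitosis list, 20 were at least 1.5-fold lower and 0 higher, where 5.55% of all genes were lower and 4.7% higher, and 11 were at least 2-fold lower. The list's median was -0.60, or -0.53 with genes detected on 1 array set at their limit, against 0.0070 for all genes. Below 0 stood 51 of the 53, and in all 16 members with a second detected probe that probe had the same sign. Without scaling the median was -0.90.

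TPX2, which nucleates spindle microtubules, had a signal of 250.4 after the combination and 649 after aclarubicin, against 613 after doxorubicin and 1109 in untreated cells. DLGAP5, which stabilises kinetochore fibres, was not detected after the combination and read 223 after aclarubicin, at least 2.35-fold lower, with 564 after doxorubicin and 863 in untreated cells. CENPE, the kinetochore motor, was likewise not detected after the combination and read 195.5 after aclarubicin, at least 2.06-fold lower, with 343 after doxorubicin and 693 in untreated cells. In all 3 genes the combination was the lowest of the 4 arrays and untreated cells the highest.

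CENPF, a kinetochore protein, was not detected after the combination and read 137 after aclarubicin, at least 1.45-fold lower, with 714 after doxorubicin and 1276 in untreated cells. KIF11, the motor that separates spindle poles, was not detected after the combination and read 136 after aclarubicin, at least 1.44-fold lower, with 418 after doxorubicin and 1651 in untreated cells. CCNA2, cyclin A2, was not detected after the combination and read 152 after aclarubicin, at least 1.60-fold lower, with 1135 after doxorubicin and 3041 in untreated cells. A second probe of KIF11, also not detected after the combination, read 174 after aclarubicin. These folds are limits set by the dimmest detected signal of the combination array, 94.9.

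Some mitotic regulators differed between the arrays by less than the per-probe error of 0.17. PLK1, the polo-like kinase of mitotic entry, read 124 after the combination and 122 after aclarubicin, a difference of 0.03. ESPL1, the separase that opens sister chromatids, read 206 after the combination and 191.5 after aclarubicin, a difference of 0.11. KIF22, a chromosome arm motor, stood at -0.04. Chosen after their values were seen, CDK1, the kinase that drives mitosis, read 747 after the combination and 859 after aclarubicin, and its partner CCNB1 was not detected after the combination and read 127 after aclarubicin. AURKB, the kinase of the chromosomal passenger complex, also chosen after its value was seen, read 227 after the combination and 401 after aclarubicin, a difference of -0.82.

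Many promoters of mitotic genes carry the cell cycle homology region, whose core is TTTGAA and which binds the MuvB complexes that silence or activate these genes through the cycle. Of 45 G2/M and mitosis genes with a RefSeq promoter of 300 bases (250 before the start to 50 after it, GRCh38.p14), 31 held TTTGAA on either strand (68.9%), against 557 of 5742 measured genes (9.70%) and 15.2% of the 35116 promoters in the table. The 2 lowest and the 2 highest members of the list with such a site near the start are shown, in windows of 150 bases, 130 before the start and 20 from it on, with TTTGAA or its reverse complement in capitals, to show that the site stood in genes at both ends of the list. DLGAP5 lies at chr14:55191566-55191715 on the minus strand, HMMR at chr5:163460502-163460651, PLK1 at chr16:23678759-23678908 and ESPL1 at chr12:53268169-53268318, these 3 on the plus strand.
DLGAP5: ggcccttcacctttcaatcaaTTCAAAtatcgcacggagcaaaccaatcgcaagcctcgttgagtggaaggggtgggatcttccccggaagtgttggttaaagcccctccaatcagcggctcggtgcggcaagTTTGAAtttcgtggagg
HMMR: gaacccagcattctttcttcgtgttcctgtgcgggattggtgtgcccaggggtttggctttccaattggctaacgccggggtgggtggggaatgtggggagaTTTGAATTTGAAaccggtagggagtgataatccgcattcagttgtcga
PLK1: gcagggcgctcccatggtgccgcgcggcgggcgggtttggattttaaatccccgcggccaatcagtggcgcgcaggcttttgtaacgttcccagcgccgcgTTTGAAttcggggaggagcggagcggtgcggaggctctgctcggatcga
ESPL1: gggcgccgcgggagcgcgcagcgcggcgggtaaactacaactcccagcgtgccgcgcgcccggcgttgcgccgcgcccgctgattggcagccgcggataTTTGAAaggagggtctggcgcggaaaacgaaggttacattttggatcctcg

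Counting the first base of the gene as 0, the sites began at -109 and 3 in DLGAP5, at -28 and -22 in HMMR, at -29 in PLK1 and at -31 in ESPL1. HMMR, which binds hyaluronan and spindle microtubules, read 244 after the combination and 603 after aclarubicin, a difference of -1.30, whereas PLK1 and ESPL1 with a site at much the same place stood at 0.03 and 0.11. Within the list, genes with TTTGAA had a median of -0.58 (n = 31) and genes without it -0.67 (n = 14). Among all genes at least 1.5-fold lower, 20.5% of 317 promoters held the motif, and 18.1% of 299 once the G2/M list was taken out, against 9.96% of 251 in genes at least 1.5-fold higher and 9.70% of all measured genes. At 2-fold, 29.6% of 54 promoters of lower genes and 17.4% of 23 promoters of higher genes held it. CCAAT, the NF-Y motif, was in 75.6% of G2/M promoters and 38.9% of all measured ones, and in 42.9% of the lower and 43.8% of the higher genes at 1.5-fold. TGACGTCA, the cyclic AMP response element, was in 6.94% of the lower and 1.99% of the higher genes, against 3.71% of all measured genes. TATAAA, the TATA box, was in 6.31% of the lower and 10.4% of the higher genes, against 5.71% of all. CACGTG, the E-box, was in 12.9% of the lower and 9.16% of the higher genes, against 11.2% of all, and TTCGAA, a variant of the cell cycle site, in 3.47% of the lower and 2.39% of the higher genes, against 1.78% of all. Both strands were searched, none of the motifs contains another, and a match describes letters in the window only.

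Replication genes did not follow the mitotic ones. The median of 40 measured genes of G1/S and DNA replication was 0.10, and -0.16 without scaling, where it stood 0.12 above the median of all genes. At least 1.5-fold higher were 2 and lower 0, where 4.7% of all genes were higher and 5.55% lower. The 2 higher genes were thus close to the share of all genes. E2F2, a transcription factor of S-phase entry, read 848 after the combination and 381 after aclarubicin, with 1052 after doxorubicin and 625 in untreated cells, a 2.23-fold difference. PCNA, the sliding clamp, read 933 after the combination and 618.5 after aclarubicin, and FEN1, the flap nuclease, read 1733 after the combination and 1157 after aclarubicin. At the low end GMNN, geminin, which blocks relicensing, stood at -0.50 and RRM2, the small subunit of ribonucleotide reductase, at -0.44. Cell cycle inhibitors and D cyclins had a median of -0.01 over 13 genes, with 3 higher at 1.5-fold, among them CDKN1B, the p27 inhibitor, at 1173 after the combination and 612 after aclarubicin.

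The p53 targets stood higher after the combination, in all 3 lists of them. The median was 0.40 over 13 genes of arrest and feedback, 0.34 over 16 of cell death and 0.43 over 9 of repair and metabolism. At 1.5-fold, 4, 5 and 3 of these members were higher and 0 were lower in any of the 3 lists, where 4.7% of all genes were higher and 5.55% lower. Above 0 stood 12 of 13, 14 of 16 and 9 of 9, where the median of all genes was 0.0070. Second detected probes had the same sign in 3 of 4, 5 of 6 and 2 of 3 members that had one. Without scaling the medians were 0.12, 0.06 and 0.18, all above the median of all genes of -0.28.

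Of the arrest genes, CDKN1A, the p21 inhibitor of cyclin-dependent kinases, read 938 after the combination and 575 after aclarubicin, against 15890 after doxorubicin and 512 in untreated cells. CCNG2, cyclin G2, read 318 after the combination and 177 after aclarubicin, against 174 after doxorubicin and 99.8 in untreated cells, but its second probe differed by -0.06. BTG1, an antiproliferative factor, read 1168 after the combination and 697 after aclarubicin, against 2310 after doxorubicin and 1095 in untreated cells. CDKN1A was thus 1.63-fold higher after the combination, and its level after doxorubicin lay far above both. Without scaling CDKN1A came under 1.5-fold, at 1.46-fold, while CCNG2 was 1.52-fold and BTG1 1.53-fold higher. MDM2, the p53 ligase, was not detected on either of the 2 arrays and is no member.

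Of the death genes, PMAIP1 (NOXA) read 958.5 after the combination and 566 after aclarubicin, against 1463 after doxorubicin and 190.5 in untreated cells. TP53I3, an oxidoreductase induced by p53, read 402 after the combination and 242 after aclarubicin, against 14300 after doxorubicin and 220.4 in untreated cells. TNFRSF10B, the death receptor DR5, read 1010 after the combination and 609 after aclarubicin, against 6500 after doxorubicin and 1102 in untreated cells. At the low end of that list stood BCL2L1, which encodes the survival protein BCL-XL, at -0.24 and EI24 at -0.22.

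In the repair and metabolism list GDF15, a stress cytokine, read 1245 after the combination and 517 after aclarubicin, against 25000 after doxorubicin and 1563 in untreated cells, a 2.41-fold difference. XPC, which recognises helix-distorting lesions, read 447 after the combination and 209.8 after aclarubicin, against 1890 after doxorubicin and 398 in untreated cells, a 2.13-fold difference. TIGAR, a regulator of glycolysis, read 365 after the combination and 190.4 after aclarubicin, against 1971 after doxorubicin and 335 in untreated cells. In these 3 genes the aclarubicin array was the lowest of the 4, and the combination lay near untreated cells.

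**Figure D2:**
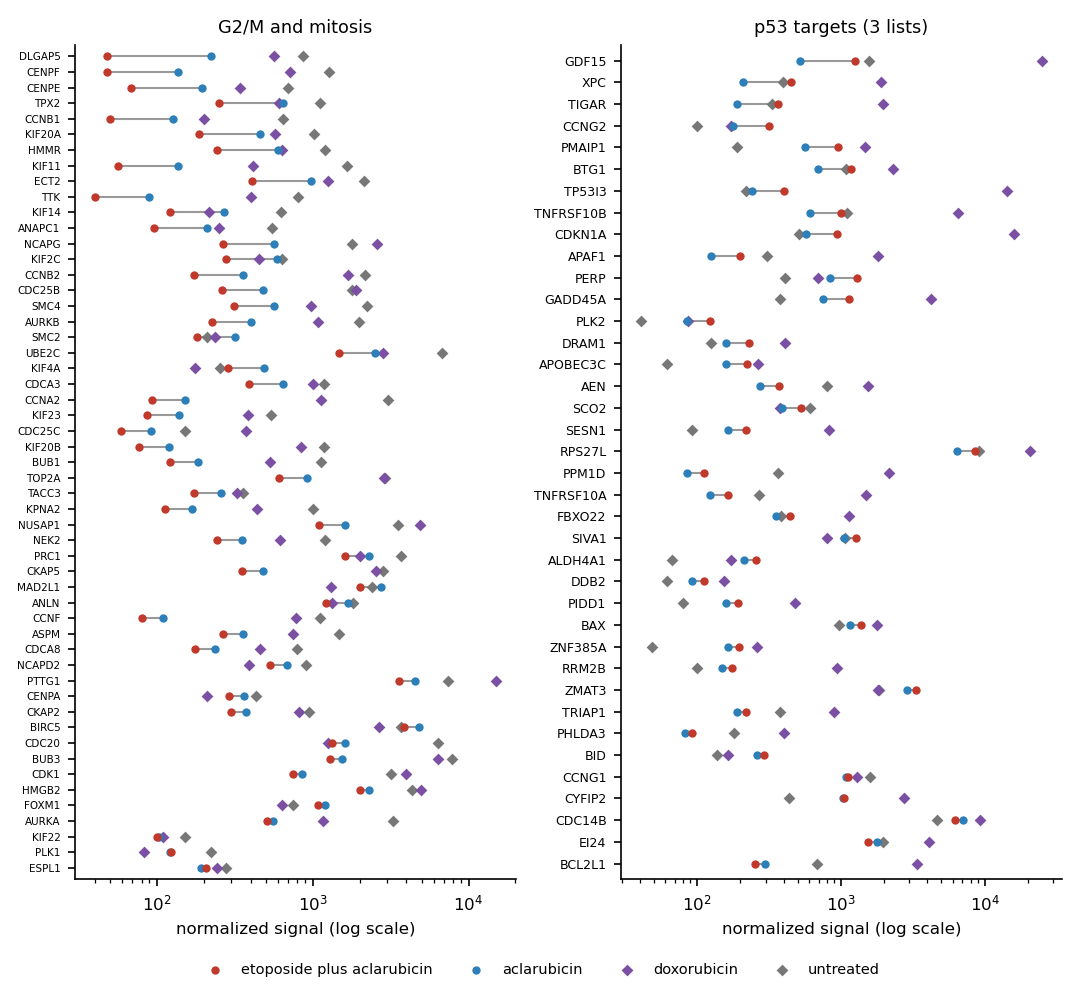
Normalized signal on each of the 4 arrays, on a log axis, for the 53 G2/M and mitosis genes (left) and the members of the 3 p53 target lists (right); circles are etoposide plus aclarubicin and aclarubicin, joined by a line, and diamonds are doxorubicin and untreated cells. The combination lies left of aclarubicin in 51 of the 53 mitotic genes and right of it in most p53 targets. The median of the mitotic list was -0.60 for the combination against aclarubicin and -0.76 for doxorubicin against untreated cells.

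Topoisomerases and the enzymes that clear them from DNA showed no common direction as a list. Both isoforms of topoisomerase II, the drugs' target, read lower after the combination. The median of 17 measured genes of topoisomerases and adduct removal was -0.01, with 1 at least 1.5-fold higher and 0 lower. TOP2A, the isoform of dividing cells, read 611 after the combination and 915 after aclarubicin, against 2853 after doxorubicin and 2918 in untreated cells, a difference of -0.58. TOP2B, the isoform found in all cells, read 423 after the combination and 581.5 after aclarubicin, against 441 after doxorubicin and 941 in untreated cells, a difference of -0.46. TOP1, which cuts 1 strand, was not detected after the combination and read 88.8 after aclarubicin, below the dimmest detected signal of the combination, so no fold could be set. APEX2, a nuclease that can process blocked ends, was detected after the combination only, at 127. TDP2, which removes topoisomerase II from DNA ends, was not detected on either array.

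Double-strand break repair genes had a median of -0.02 over 25 genes. At 1.5-fold 1 was lower and 0 higher, where 5.55% of all genes were lower and 4.7% higher. POLQ, the polymerase of end joining, read 100.2 after the combination and 170.5 after aclarubicin. H2AX, the histone variant marked at breaks, had a difference of -0.22 by one probe and 0.06 by another.

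Immediate early transcription factors were mostly higher after the combination. Their median was 0.50 over 22 genes, with 21 above 0. At least 1.5-fold higher were 7 and lower 0, where 4.7% of all genes were higher and 5.55% lower. After aclarubicin 14 of the 22 read above untreated cells and 8, such as MYC, below. FOSB, an AP-1 subunit, read 4331 after the combination and 2918 after aclarubicin, against 194.5 after doxorubicin and 48.0 in untreated cells. EGR4, of the EGR zinc finger family, read 229 after the combination and 117 after aclarubicin and was not detected on the other two arrays. IER5 read 791 after the combination and 491 after aclarubicin, and KLF10 read 197 after the combination and 122 after aclarubicin. FOSL1, the AP-1 subunit FRA-1, was the member below 0, with 196 after the combination and 240.3 after aclarubicin. Relative to genes of like length, a reading chosen after seeing the data, the median was 0.28. Without scaling the list's median was 0.25, which is 0.52 above the median of all genes. EGR4 was then 1.60-fold higher, while IER5 and KLF10 came under 1.5-fold, at 1.43-fold and 1.31-fold.

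The ID and BMP responders had the highest median of the lists with more than 3 measured genes, 0.59 over 8 genes, with all 8 above 0. At least 1.5-fold higher were 4 and lower 0, where 4.7% of all genes were higher and 5.55% lower. ID1, an inhibitor of basic helix-loop-helix factors, read 1903 after the combination and 1127 after aclarubicin, against 189 after doxorubicin and 98.0 in untreated cells. HEY1, a Notch and BMP target, read 504 after the combination and 324 after aclarubicin, against 71.9 after doxorubicin and 93.2 in untreated cells. Without scaling the median of the 8 genes was 0.34, which is 0.62 above the median of all genes. ID1 was then 1.57-fold higher, while HEY1 came under 1.5-fold, at 1.36-fold. SMAD7, the feedback inhibitor of TGF-beta signalling, was detected after the combination only, at 121. ID2 read 7356 after the combination and 5701 after aclarubicin, against 484 after doxorubicin and 52.8 in untreated cells, a difference of 0.37. GADD45B, a stress-response gene, read 2772 after the combination and 1921 after aclarubicin, against 62.0 after doxorubicin and 78.2 in untreated cells.

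Genes of the nuclear envelope, of ribosome assembly and of nucleotide synthesis were lower by smaller steps. Lamins and nuclear pore genes had a median of -0.27 over 27 genes. At least 1.5-fold lower were 5 and higher 0, where 5.55% of all genes were lower and 4.7% higher. LMNB1, lamin B1, read 108 after the combination and 341 after aclarubicin, against 271 after doxorubicin and 702 in untreated cells, the lowest value among genes detected on both arrays at -1.66. LMNA, lamin A/C, chosen after its value was seen, stood at -0.02. NUP153, a pore basket protein, was not detected after the combination and read 116 after aclarubicin, and NUP62, of the central channel, stood at 0.36.

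Ribosome biogenesis genes had a median of -0.26 over 40 genes. At 1.5-fold 5 were lower and 0 higher, where 5.55% of all genes were lower and 4.7% higher. NOC3L, a nucleolar protein, read 106 after the combination and 320.5 after aclarubicin, against 1010 after doxorubicin and 1484 in untreated cells, a 3.03-fold difference. DDX10, a nucleolar helicase, was not detected after the combination and read 127 after aclarubicin. Nucleotide synthesis genes had a median of -0.21 over 17 genes, with 2 lower and 0 higher. ADSL, of purine synthesis, read 924 after the combination and 1542 after aclarubicin, against 2142 after doxorubicin and 4363 in untreated cells.

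Of the 48 lists, 4 had a median under -0.2, namely the mitotic, nuclear envelope, ribosome biogenesis and nucleotide lists, 14 had one above 0.2 and 30 lay between. Splicing factors stood at -0.05 over 49 genes, though SRSF3, an SR protein, read 117 after the combination and 347 after aclarubicin, with 309.5 after doxorubicin and 948.5 in untreated cells. Ribosomal proteins stood at 0.07 over 69 genes and respiratory chain genes at 0.09 over 60, with 0 past 1.5-fold in either direction; without scaling these medians were -0.03 and -0.07, which is 0.24 and 0.21 above the median of all genes. Melanocyte lineage genes stood at -0.06 over 13 genes, with 0 past 1.5-fold. Replication-dependent histone genes stood at 0.24 over 30 genes, and without scaling at -0.06, which is 0.22 above the median of all genes. Their near-identical copies may share probe sequence, which was not checked, so single members are uncertain. Relative to genes of like length, a reading chosen after seeing the data, their median was 0.01. Small nucleolar RNAs stood at 0.37 over 32 probes, and at 0.13 relative to genes of like length. Many lie within host genes, and whether a probe also reads the host transcript was not checked.

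Smaller groups held single genes past 1.5-fold. Metallothionein and zinc genes had a median of 0.10 over 17 genes (-0.19 without scaling, 0.09 above all genes), with 5 at least 1.5-fold higher and 0 lower. Among the 5 were the zinc exporter SLC30A1, at 296 after the combination and 185 after aclarubicin, and the metal binder MT1G, at 311 after the combination and 190.2 after aclarubicin. Without scaling SLC30A1 and MT1G came under 1.5-fold, at 1.33-fold and 1.36-fold. Heat shock and chaperone genes had a median of -0.15 over 23 genes, with HSPA6, the strictly inducible HSP70, at 364 after the combination and 195 after aclarubicin, and CCT2, a chaperonin subunit, at 1878 after the combination and 2905 after aclarubicin. TGF-beta, YAP and matrix genes had a median of -0.08 over 16 genes, with 4 lower and 2 higher at 1.5-fold. THBS1, thrombospondin 1, read 1956 after the combination and 4598 after aclarubicin, against 1724 after doxorubicin and 10180 in untreated cells, while ACTA2, smooth muscle actin, read 1738 after the combination and 1049 after aclarubicin, against 7116 after doxorubicin and 117 in untreated cells.

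The 7SK complex holds the elongation factor P-TEFb inactive. A list of its genes, those of P-TEFb and other elongation factors such as SUPT5H and NELFCD had a median of -0.03 over 9 genes. At 1.5-fold 1 was higher and 1 lower. MEPCE, of this list, stood at 0.56. RN7SK, the RNA of the 7SK complex, read 7444 after the combination and 5452 after aclarubicin, against 5358 after doxorubicin and 87.0 in untreated cells. HEXIM1, its inhibitory protein, read 152 after the combination and 88.6 after aclarubicin and was not detected on the other two arrays. LARP7, which stabilises the RNA, read 201 after the combination and 327 after aclarubicin. Zinc finger ZNF genes had a median of 0.20 over 97 genes, 73 of them above 0, and -0.07 without scaling, which is 0.21 above the median of all genes. DKK1, a secreted Wnt inhibitor, and SUGCT, a mitochondrial enzyme gene, differed little between the 2 arrays, at 0.08 and 0.23 (-0.24 and -0.07 without scaling), although DKK1 read 193 after the combination and 182 after aclarubicin against 11100 in untreated cells.

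**Figure D3:**
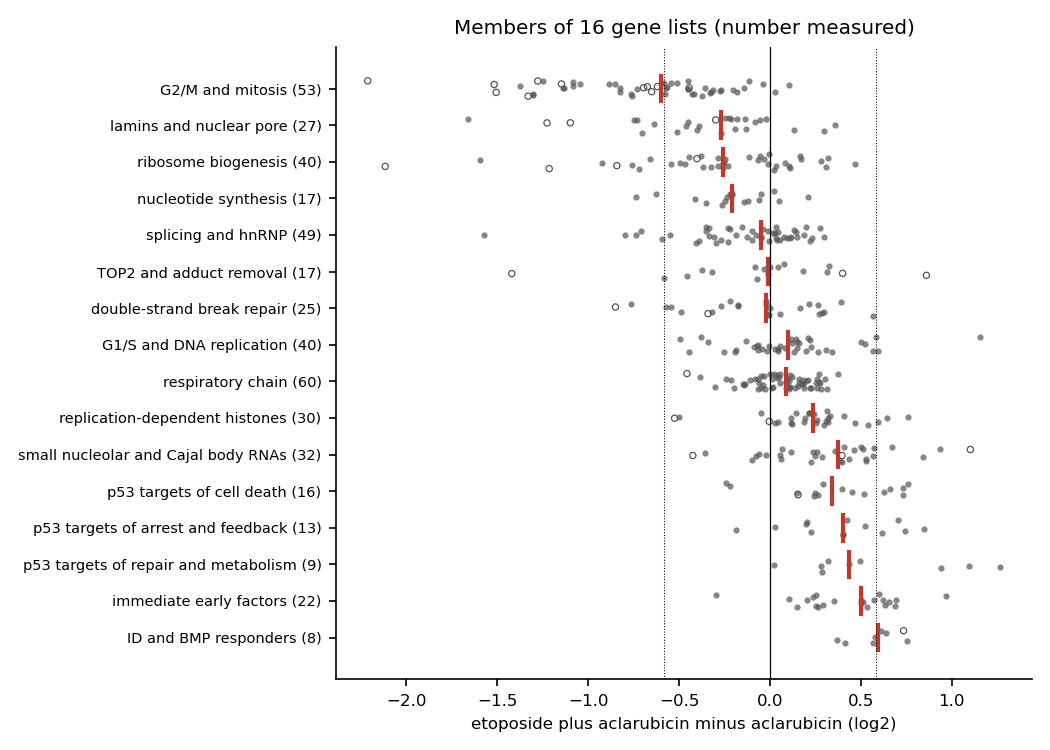
Log2 difference between etoposide plus aclarubicin and aclarubicin for every measured member of 16 gene lists; red bars are medians, open circles are genes detected on 1 of the arrays only, and dotted lines mark 1.5-fold. Mitotic genes lie lowest, with a median of -0.60, and p53 targets, immediate early factors and ID and BMP responders lie highest.

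The highest single gene was HAND1, a transcription factor of heart and trophoblast development, with 495 after the combination and 151.5 after aclarubicin, a 3.27-fold difference, and no detection on the other two arrays. RFTN2, a lipid raft protein, read 311 after the combination and 115 after aclarubicin, a 2.71-fold difference, and was not detected on the other two arrays either. IL12A, the p35 subunit of interleukin 12, read 522 after the combination and 202 after aclarubicin, against 246.5 after doxorubicin and 78.7 in untreated cells, a 2.58-fold difference. All 3 were dim or not detected in untreated cells.

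Also among the 20 highest genes, FOXQ1, a forkhead factor, read 278 after the combination and 109.5 after aclarubicin and was not detected on the other two arrays. SNAI2 (Slug), a repressor of epithelial genes, read 238 after the combination and 108 after aclarubicin, against 104 after doxorubicin and 94.2 in untreated cells, and its second probe gave 1.16 against 1.14. SP8, a zinc finger factor of limb and forebrain, read 419.8 after the combination and 194 after aclarubicin, against 97.0 after doxorubicin and 75.2 in untreated cells, with a second probe at 1.47. The rule that named these 20 genes required other detected probes to have the same sign, so that sign is no added support.

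RGS16, which shuts off G protein signals, read 585 after the combination and 272 after aclarubicin and was not detected on the other two arrays. TRIB2, a pseudokinase, read 272 after the combination and 127 after aclarubicin, with 169 in untreated cells and no detection after doxorubicin. KREMEN2, a DKK receptor that dampens Wnt signals, read 184 after the combination and 84.6 after aclarubicin, against 199.7 after doxorubicin and 53.9 in untreated cells. Of the 20, 7 were not detected in untreated cells: HAND1, RFTN2, FOXQ1, ZNF280A, SIRT4, RGS16 and PIERCE1.

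Among genes detected after the combination only, LEFTY1 was at least 2.38-fold higher and LEFTY2 at least 2.05-fold higher. Both are inhibitors of Nodal and close paralogs, so the 2 probes may read one another's transcript. IRF7, the interferon regulatory factor, was at least 2.07-fold higher and FZD4, a Wnt receptor, at least 2.04-fold. Of these 4, FZD4 alone was detected in untreated cells, at 119 against 162 after the combination.

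The 20 lowest genes were of mixed function, with carriers, splicing factors, enzymes and cytoskeletal genes among them, and were not counted by function. SLC2A1, the glucose transporter GLUT1, read 156 after the combination and 461 after aclarubicin, against 2284 after doxorubicin and 1718 in untreated cells, a 2.95-fold difference. PPP1CC, a catalytic subunit of protein phosphatase 1, read 1076 after the combination and 2773 after aclarubicin, against 4955 after doxorubicin and 6905 in untreated cells, a 2.58-fold difference. KPNA4, an importin, read 404 after the combination and 1040 after aclarubicin, against 954 after doxorubicin and 1998 in untreated cells. All 3 had their lowest signal on the combination array.

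MBNL2, a splicing regulator, read 114 after the combination and 312 after aclarubicin, against 707 after doxorubicin and 1306 in untreated cells. Its second probe stood at -1.15, with the sign that the naming rule required. HMGCS1, of cholesterol synthesis, read 252 after the combination and 643 after aclarubicin, against 477 after doxorubicin and 683 in untreated cells, while the 15 measured genes of that pathway had a median of -0.03. IL24, a cytokine of the interleukin 10 family, read 337 after the combination and 885 after aclarubicin, against 2050 after doxorubicin and 3680 in untreated cells. DYM read 131 after the combination and 363 after aclarubicin, and its 120.3 after doxorubicin was close to the combination. Several of the 20 lowest, such as LMNB1, SVIL and CMTM8, lay close to the dimmest detected signal of the combination array.

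Of genes detected after aclarubicin only, WWP1, a ubiquitin ligase, was at least 2.97-fold lower, with 282 after aclarubicin, 808 after doxorubicin and 467 in untreated cells. DEPDC1 was at least 2.84-fold lower and UBASH3B, a phosphatase, at least 2.55-fold lower. INPP4B, a phosphoinositide phosphatase, was at least 2.49-fold lower.

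**Figure D4:**
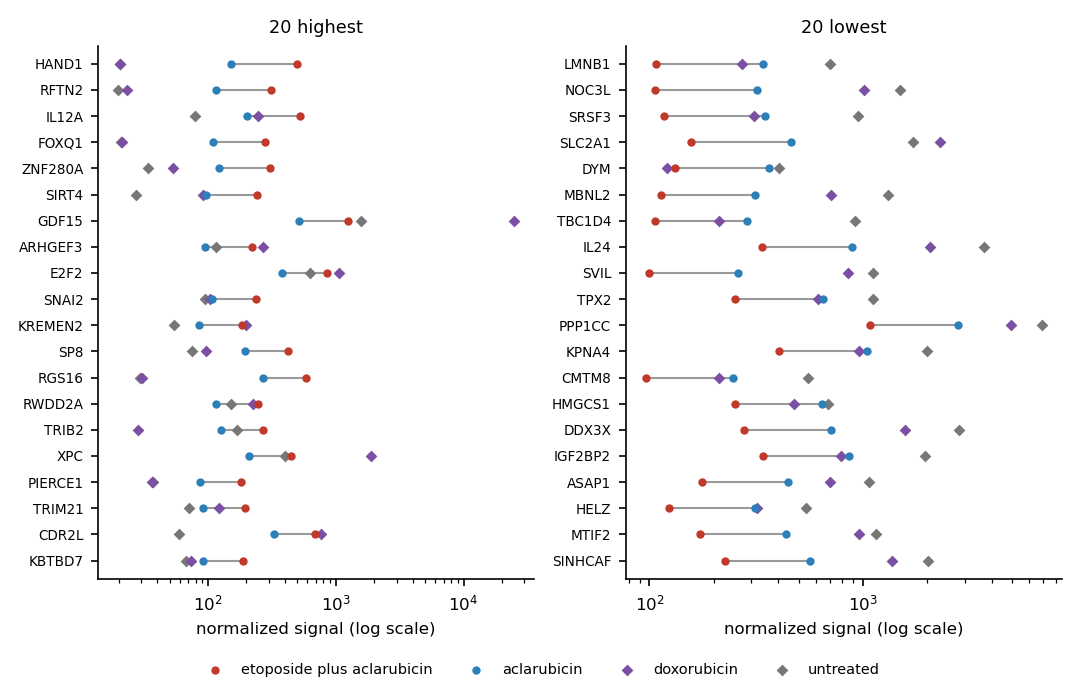
Normalized signal on each of the 4 arrays, on a log axis, for the 20 genes highest (left) and the 20 lowest (right) after etoposide plus aclarubicin relative to aclarubicin, among genes detected on both arrays. Circles are the 2 arrays compared, joined by a line, and diamonds are doxorubicin and untreated cells. On the left the joined points differ by 2.05-fold (KBTBD7) to 3.27-fold (HAND1), on the right by 2.50-fold (SINHCAF) to 3.16-fold (LMNB1).

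Genes that untreated cells did not express detectably stood apart. Of 191 members not detected in untreated cells, 51 (26.7%) were at least 1.5-fold higher after the combination and 0 lower, with a median of 0.43. Some of the 191 entered through the combination array alone. A gene detected after aclarubicin only is bounded at the dimmest detected combination signal, 94.9, which limits the count of lower genes. The 6686 members detected in untreated cells had a median of -0.0013, with 272 higher and 382 lower. Dimness moved with this, since the median signal over the 2 arrays was 104 for the 191 genes and 337 for the rest, and genes at the edge of detection stood 0.41 to 0.47 higher by themselves. The reading was therefore repeated in ways chosen after seeing the data. Among members detected on both arrays the medians were 0.41 (n = 112) for genes not detected in untreated cells and 0.02 (n = 6006) for the rest. Of these 112, 35 (31.25%) were at least 1.5-fold higher and 0 lower, against 248 (4.13%) higher and 332 lower of the 6006. This filter limits the count of lower genes too, since the combination signal cannot lie under 94.9. The median signal was 131 for the 112 genes and 403 for the 6006, so the limit weighs more on the 112. In genes with a mean signal of 200 and over the medians were 0.44 (n = 33) for genes not detected in untreated cells and 0.01 (n = 4468) for the rest. Without scaling, the median of the 191 genes was 0.13 and that of the others -0.29. How far the offset at the edge of detection enters the value of the dimmest of these genes was not tested.

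The difference also ran with gene length, taken as the span of the gene in the RefSeq annotation of GRCh38.p14, known for 6872 members. The median fell in steps along the length classes, at 0.24 for genes under 2 kb (n = 239), 0.20 from 2 to 5 kb, 0.13 from 5 to 10 kb and 0.07 from 10 to 20 kb. It was -0.04 from 20 to 50 kb, -0.14 from 50 to 100 kb, -0.27 from 100 to 200 kb and -0.34 above 200 kb (n = 330). At least 1.5-fold lower were 0.837% of the shortest genes and 16.7% of the longest, and higher were 10.9% of the shortest and 0.909% of the longest. Spearman's correlation between length and difference was -0.42 across genes, which share 2 arrays and are not independent replicates. Long genes were also dimmer, with a median signal of 179 above 200 kb and 430 under 2 kb. Among genes detected on both arrays the medians were 0.23 under 2 kb and -0.19 above 200 kb.

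The genes were also divided by signal into 4 bins of equal size, a reading chosen after seeing the data. The median was 0.34 under 5 kb and -0.46 above 100 kb in the dimmest bin, and 0.13 under 5 kb and -0.09 above 100 kb in the brightest. Mitotic genes lay below their length class: under 20 kb their median was -0.44 (n = 22) against 0.13 for all genes, and from 20 kb on it was -0.67 (n = 31) against -0.11. Relative to the median of its length class, the list stood at -0.54. The p53 lists likewise kept their place, at 0.40, 0.36 and 0.36 relative to length.

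**Figure D5:**
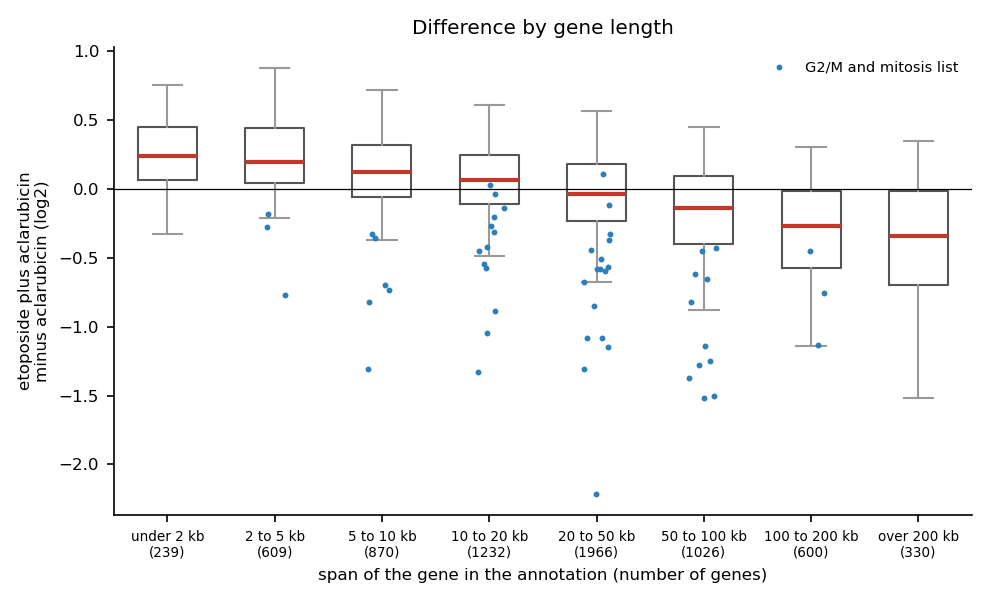
Log2 difference between etoposide plus aclarubicin and aclarubicin by class of gene span; boxes span the quartiles, red bars are medians and whiskers reach the 5th and 95th percentiles over genes, and blue points are G2/M and mitosis genes. The medians run between 0.24 in the shortest class and -0.34 in the longest, and most mitotic genes lie below the box of their class.

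Doxorubicin, which makes breaks by itself, was compared with untreated cells on arrays that the etoposide comparison does not use, although all 4 arrays were normalized together. Over 6785 members detected on 1 of those 2 arrays at least, 802 were at least 2-fold higher after doxorubicin (11.8%) and 869 lower (12.8%). Of the members at least 1.5-fold higher after the combination, 299 could be compared, of which 97 (32.4%) were 2-fold higher after doxorubicin and 20 (6.69%) lower. Of the 382 at least 1.5-fold lower after the combination, 8 (2.09%) were higher after doxorubicin and 123 (32.2%) lower. Across the 6785 genes the differences had a Pearson correlation of 0.34 and a Spearman correlation of 0.34, as a description over genes that are not independent replicates.

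The p53 targets were on the shared side, since 9 of 13 arrest, 11 of 16 death and 8 of 9 repair and metabolism genes were at least 2-fold higher after doxorubicin than in untreated cells, with 0 lower. Of the mitotic genes, 16 of 53 were 2-fold lower and 2 higher, beside 12.8% lower and 11.8% higher among all members compared. Ribosome biogenesis genes were lower in both comparisons, with a median of -1.06 for doxorubicin against untreated cells beside -0.26 for the combination against aclarubicin. Small nucleolar RNA genes had medians of opposite sign, -0.80 for doxorubicin against untreated cells beside 0.37 for the combination against aclarubicin. Among the 20 highest genes, TRIB2 read 28.2 after doxorubicin, where it was not detected, and 169 in untreated cells. Long genes above 200 kb had a median of -0.64 for doxorubicin against untreated cells, and genes under 2 kb -0.13.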

How the data were processed

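RNA of 4 MelJuSo cultures, labelled with biotin, was read on Illumina beadchips of 1 colour, 1 array per group; the treatment label gave the group. The deposited signal table holds intensity per probe as the authors left it, not normalized, with a detection p-value in the next column, per the file headers. The authors also deposited normalized values, log2-like where bright. The notes of the submitters name lumi without saying how it was used, so these values served as an alternative.

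Background was corrected with limma (version 3.58.1, R version 4.3.3) by normexp from the detection p-values with an offset of 16, followed by quantile normalization of the 4 arrays and log2. The offset shrinks differences of dim probes, and quantile normalization removes a shift shared by most genes. Of 48803 probes, the platform annotation gave 27578 a single symbol, 13 more than 1 and 21212 none here. Entrez identifiers matched RefSeq GRCh38.p14 for 27541 probes, with 0 symbols changed. On at least 1 of the compared arrays 10116 probes were detected, and 8601 of them carried 1 symbol. Each gene was read from whichever of its probes was brightest on those arrays. For a gene detected on 1 array, the fold was bounded by the dimmest detected signal of the other. The number of arrays limits the precision.

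Named genes were the 20 highest and 20 lowest detected on both arrays whose other probes had the same sign, up to 8 bounds per direction, 3 members from each end of every list, and a fixed set (TOP2A, TOP2B, TOP1, TDP2, H2AX, CDKN1A, MDM2, GDF15, TP53I3, CCNA2, KIF11, DKK1, ID2, FOSB, GADD45B, RN7SK, ACTA2 and SUGCT). Members and lists were chosen with earlier results of these data known. Alternatives were other scalings, background settings, probe rules, detection filters and fold limits. Tables were made with Python 3.11.15, numpy 2.4.6 and pandas 2.3.3.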

Additional observations from a re-analysis of the deposited data

How the results depend on the processing

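The split of calls depended on the scaling. Genes at least 2-fold higher numbered 32 and genes at least 2-fold lower 63, against 9 and 287 with median scaling, 7 and 332 without scaling, 41 and 101 with cyclic loess, and 50 and 94 with quantile normalization over the 2 compared arrays only. Without scaling, 7 of the 32 higher genes and all 63 lower genes were shared. Without background correction the counts were 12 and 44, with an offset of 50 they were 10 and 41, and among genes detected on all 4 arrays 16 and 54. With no detection filter they were 130 and 268, at 1.5-fold 323 and 382, and at 3-fold 1 and 2. The authors' normalized values gave 44 and 84, the mean over probes 32 and 67, and genes detected on both arrays 27 and 54. The 40 genes named as highest and lowest kept their sign under all alternatives that measured them, but 13 of the 20 highest were under 2-fold without scaling. Relative to the median of all genes, the G2/M median ranged between -0.65 and -0.51. Relative to genes of like length, the medians of replication-dependent histones, immediate early factors and ID and BMP responders came to 0.01, 0.28 and 0.40, beside 0.23, 0.49 and 0.59 relative to all genes. No alternative turned the sign of a named gene past 2-fold; the cause of each shift in counts was not tested. No paired analysis was possible because each group is 1 array. Dim genes limit what could be seen, since those near the dimmest detected signal give only bounds.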

Other observations

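Of 1290 probes without a gene name detected on both arrays, 4 were at least 2-fold higher and 6 at least 2-fold lower after the combination, with a median of 0.08 log2 and a range of -1.38 to 1.71. Promoters of genes at least 1.5-fold lower had a median GC content of 64.0% and those of genes at least 1.5-fold higher 65.0%, beside 65.3% over all measured genes and 61.7% for the G2/M and mitosis list.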
